A study of Rattus norvegicus with 2 samples.

Results

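The solute carriers of the plasma membrane and of intracellular vesicles were examined in natural killer (NK) cells of the rat spleen. Members were the genes whose probe sets carry a single symbol made of Slc and a number. Mitochondrial carriers of family 25 and the glucose and lactate carriers Slc2a1, Slc2a3, Slc16a1 and Slc16a3 were left out. This gave 251 genes with 337 probe sets in 50 families, of 14217 genes on the array with a symbol of their own. A gene was called measured when the signal of its brightest probe set was above 20.4, the pooled median of the arrays without control probe sets, on at least 1 array. By that rule 126 of the 251 carrier genes (50.2%) were measured, against 9114 of all 14217 genes (64.1%). Of the 126, 103 were above the floor on both arrays and 23 on 1 array only.

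The study compared NK cells bearing NKR-P1B, an inhibitory receptor of the lectin-like NKR-P1 family, with NK cells bearing Ly49s3, an activating receptor of the Ly49 family. Cells came from 9 rats of the PVG.7b strain, 8 to 12 weeks old, and both groups were CD3-negative, NKR-P1A-positive and positive for 1 of the receptors but not the other. Spleen cells had first been depleted of cells bearing the alpha-beta T cell receptor, CD5, CD68, CD45RA or immunoglobulin kappa, and purity after sorting was above 90%. RNA of each population was hybridised to 1 array, and the sources used here do not say whether the rats were pooled. There are therefore no replicates and no test, and each difference below describes these 2 arrays.

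Solute carriers are membrane proteins that move small molecules across membranes by exchange, by facilitated diffusion or by coupling to the gradient of sodium, protons or another ion. A lymphocyte draws its amino acids, nucleosides, metals, vitamins and phosphate through them, and sets its pH and volume with others. A second set sits in the Golgi, lysosome and endosome, where it supplies nucleotide sugars for glycosylation or returns breakdown products to the cytosol. Carriers are numbered by family, and a family usually shares its kind of substrate. Some need a partner chain to reach the surface, as the heavy chain CD98 does for several amino acid carriers.

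Signals are in arbitrary units on a linear scale and were floored at 20.4 before the log2 difference, NKR-P1B+ minus Ly49s3+, was taken. Where 1 of the values was below the floor, the ratio is given as "at least". Signals of different genes come from different probes and are not compared as amounts. Spread was estimated from pairs of probe sets of the same gene, which come from a common RNA preparation, sort and array. Mean signal is, here and below, the geometric mean of the floored values of both arrays. The standard deviation (SD) of the spread on the log2 scale was 0.38 below a mean signal of 50, 0.32 from 50 to 100, 0.25 from 100 to 200, 0.22 from 200 to 500 and 0.17 above 500. Variation between rats, sorts or arrays is not part of it. The deposited values had a trimmed mean of 100.04 on both arrays and medians of 19.6 and 21.2, without control probe sets.

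All 8 NK cell markers on the array were measured, with summed signals of 21748.1 in the NKR-P1B+ sample and 18893.6 in the Ly49s3+ sample. Of 8 macrophage markers only Lyz2 was above the floor, at 356.3 and 133.0, while Csf1r, Cd68 and Cd163 were below it on both arrays. T cell markers summed to 219.1 and 490.4, and without the adaptor gene Trat1 (86.2 and 346.3) to 132.9 and 144.1. Cd5, a marker used for depletion, ran the other way at 92.7 and 40.8, Cd3g was at 22.3 and 42.9, and Cd3e, Cd3d and Cd8b were below the floor. Erythroid markers summed to 362.1 and 330.0, with 3 of 5 measured. For B cells, neutrophils and mast cells, and platelets 1 of 4 markers each was measured, and none of 3 for stroma.

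Among the 126 measured carriers, 8 were at least 1.5-fold higher in the NKR-P1B+ sample (6.35%), where the share of all measured genes was 5.11%. At least 1.5-fold higher in the Ly49s3+ sample were 11 carriers (8.73%), beside 5.73% of all measured genes. At 2-fold the counts were 4 (3.17%, beside 1.78% of all) and 2 (1.59%, beside 1.21%). The other 107 carriers were within 1.5-fold. By sign alone 51 carriers were higher in the NKR-P1B+ sample and 75 in the Ly49s3+ sample, beside 47.6% and 52.2% of all measured genes. The split of the measured carriers also depended on the scaling. With the arrays scaled to the spiked poly-A controls, 36 and 2 carriers were 1.5-fold higher. That scaling also moved the median of all measured genes from −0.02 to 0.46. As these are sorted populations measured in bulk, fewer cells with a transcript and less transcript per cell cannot be told apart. Carriers as a set had shares close to the background, and the median difference was −0.05 with an SD of 0.46 across genes, beside −0.02 and 0.42 for all measured genes. Log2 signals of the 103 carriers above the floor on both arrays had Pearson's r of 0.959 between the arrays, a correlation across genes, which are not independent replicates.

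**Figure D1:**
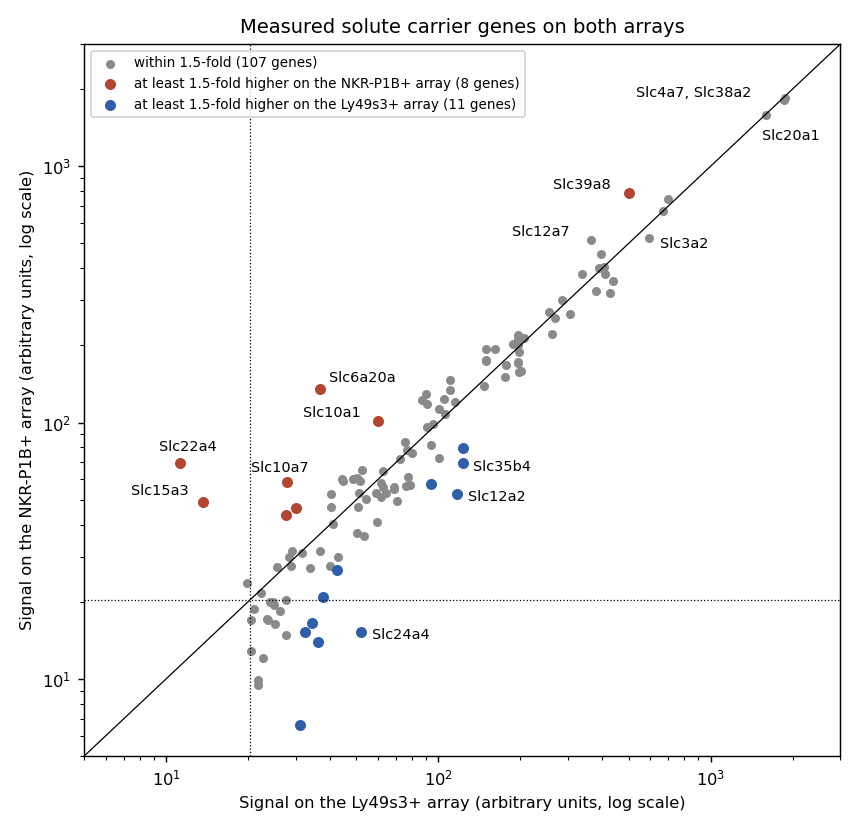
Signal of each of the 126 measured solute carrier genes in the NKR-P1B+ sample (vertical, log scale) against the Ly49s3+ array (horizontal, log scale), with dotted lines at the floor of 20.4 and the diagonal for equal signal. The 8 genes at least 1.5-fold higher in the NKR-P1B+ sample are red and the 11 in the Ly49s3+ sample blue, and 18 of these 19 have a geometric mean signal below 100.

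Most of the 19 differences were found at low signal. Of the 19 carriers at least 1.5-fold apart, 12 had a geometric mean signal below 50 and 18 below 100 (Slc35f2 just below, at 99.0), and 7 had a value at the floor. Below 100, 18 of 79 carriers (22.8%) were 1.5-fold apart, beside 17.7% of all genes in that range. Above a geometric mean of 100 it was 1 of 47 carriers (2.13%), beside 6.11% of all genes. That gene was Slc39a8. Carriers were more often dim than genes in general, since 62.7% of the measured carriers had a mean signal below 100 beside 40.9% of all measured genes. Differences beyond 2 SDs of the probe set spread were seen for 14 of the 126 carriers (11.1%, beside 12.3% of all measured genes), and 12 of the 19 were among them.

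**Figure D2:**
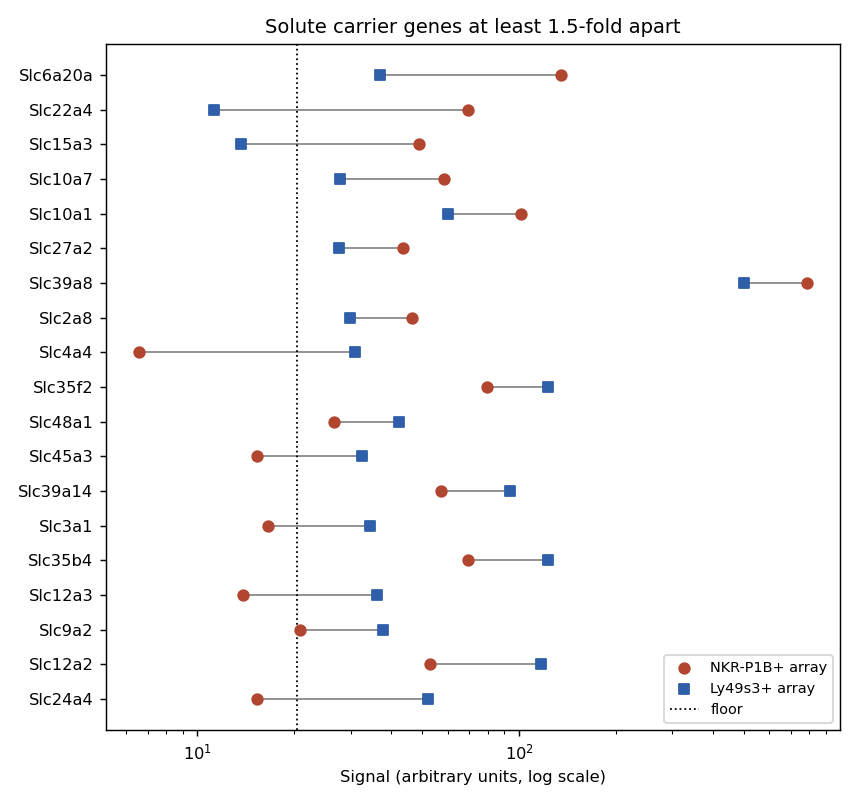
Signals of the 19 solute carrier genes at least 1.5-fold apart on each array (log scale, arbitrary units), circles for NKR-P1B+ and squares for Ly49s3+, with the floor of 20.4 as a dotted line. Genes are ordered by floored log2 difference, from Slc6a20a (1.87) to Slc24a4 (−1.35), and 7 lines cross the floor.

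Upstream sequence is given for 4 carriers, chosen by how their differences held across settings or by size. Slc6a20a, Slc12a2 and Slc39a8 were at least 1.5-fold apart under each of the 8 other settings tried, and Slc22a4 had the largest bound, which depends on the floor. Slc6a20a has a second probe set without the difference. Each sequence is the 250 bases before the start that RefSeq lists for the gene on the rat assembly GRCr8, read 5′ to 3′ on the gene's strand. Capitals mark matches to the motifs named after them.
Slc6a20a: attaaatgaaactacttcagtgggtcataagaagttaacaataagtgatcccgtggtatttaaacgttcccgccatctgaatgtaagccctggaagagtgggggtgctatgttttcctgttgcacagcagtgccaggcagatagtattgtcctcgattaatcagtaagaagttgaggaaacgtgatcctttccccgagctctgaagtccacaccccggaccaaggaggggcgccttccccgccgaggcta
Slc22a4: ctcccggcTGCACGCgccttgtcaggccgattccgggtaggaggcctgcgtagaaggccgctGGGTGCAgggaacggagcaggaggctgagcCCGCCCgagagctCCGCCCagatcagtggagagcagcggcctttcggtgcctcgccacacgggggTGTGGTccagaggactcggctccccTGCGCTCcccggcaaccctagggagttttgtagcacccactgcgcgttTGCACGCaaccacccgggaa
Slc12a2: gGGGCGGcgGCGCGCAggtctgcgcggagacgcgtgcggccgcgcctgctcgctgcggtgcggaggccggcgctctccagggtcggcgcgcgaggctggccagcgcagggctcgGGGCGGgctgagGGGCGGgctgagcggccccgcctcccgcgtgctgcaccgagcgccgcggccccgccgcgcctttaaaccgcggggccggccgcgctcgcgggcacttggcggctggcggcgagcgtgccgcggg
Slc39a8: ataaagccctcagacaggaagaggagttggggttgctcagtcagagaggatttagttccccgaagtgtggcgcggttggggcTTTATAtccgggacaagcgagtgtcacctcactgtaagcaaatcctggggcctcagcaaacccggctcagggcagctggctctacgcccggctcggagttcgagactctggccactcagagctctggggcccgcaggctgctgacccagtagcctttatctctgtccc

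The windows lie at chr8:132199901-132200150 on the minus strand for Slc6a20a, chr10:38679921-38680170 on the minus strand for Slc22a4, chr18:53546083-53546332 on the plus strand for Slc12a2 and chr2:226929941-226930190 on the plus strand for Slc39a8. Their base composition differs, with 49.2% G and C for Slc6a20a, 59.2% for Slc39a8, 68.4% for Slc22a4 and 83.2% for Slc12a2. In the Slc22a4 window the capitals are 2 GC boxes (GGGCGG, here on the other strand as CCGCCC), 1 RUNX site (TGTGGT) and 4 metal response cores (TGCACNC or TGCGCNC). In that of Slc12a2 they are 3 GC boxes and 1 metal response core. In that of Slc39a8 they are a TATA box read on the other strand from −168 to −163 relative to the start, and the Slc6a20a window holds none of the motifs searched.

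Motifs were searched on both strands in the windows of all listed genes. Windows were listed for 206 of the 251 carriers and 105 of the 126 measured ones. The GC box was in 65 of the 111 windows of measured carriers (58.6%) and in 30.5% of the 33469 windows of all genes. The E-box (CACGTG) was in 15.3% and 5.59%, the ETS site (CCGGAAG) in 12.6% and 7.27%, and the metal response core in 29.7% and 20.6%. The CCAAT box (CCAAT) was in 35.1% and 34%, the TATA box (TATAAA) in 6.31% and 12.9%, the RUNX site in 11.7% and 14.5%, and the ROR site (AGGTCA) in 13.5% and 14.1%. The amino acid response element (TGATGNAA) was in 4.5% and 3.4%, and the T-box site (AGGTGTGA) in 1.8% and 0.959%. The windows of all genes were not limited to measured genes or to genes on the array, and shares for all measured genes were not taken. Whether these shares are particular to carriers or are those of measured genes in general was therefore not tested. A match is only a run of letters and says nothing about binding in these cells.

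Carriers of amino acids and peptides were the largest group, with 24 of 61 genes measured. The sodium-coupled neutral amino acid carriers Slc38a2 (1853.3 and 1876.5, given here and below as NKR-P1B+ then Ly49s3+) and Slc38a1 (326.8 and 380.6) had similar signals on both arrays. Both take up glutamine among other amino acids. The same held for Slc1a5, which exchanges glutamine and other neutral amino acids, at 255.7 and 268.5, and for the taurine carrier Slc6a6 at 301.5 and 285.6. Slc7a1, the main carrier of arginine and lysine, was 1.33-fold higher in the Ly49s3+ sample, at 320.3 and 425.9. Another probe set of Slc7a1 gave the same direction, at 213.0 and 287.5. The lysosomal carrier Slc38a9, which signals the presence of amino acids to the mTORC1 kinase complex, had 46.7 and 50.8.

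The CD98 heavy chain gene Slc3a2, whose product brings light chains to the cell surface, had 527.4 and 596.6. Its light chains were lower in the NKR-P1B+ sample by small amounts, with Slc7a5, a carrier of leucine and other large neutral amino acids, at 51.1 and 61.6, and Slc7a6, an exchanger of cationic and neutral amino acids, at 159.6 and 201.1. Slc7a7, a related exchanger, had 21.7 and 22.4, near the floor. The other light chains on the array, Slc7a8, Slc7a10 and the cystine carrier Slc7a11, were below the floor on both arrays. All 4 measured CD98 chains were lower in the NKR-P1B+ sample, as were 52.2% of all measured genes. Their median difference was −0.22, and none was 1.5-fold apart. All 4 were higher there with spike scaling, at a median of 0.26, and 1 of 4 with quantile normalization or the loess trend subtracted. Slc3a1, the other heavy chain, was at 16.6 and 34.3, at least 1.68-fold higher in the Ly49s3+ sample, while its light chain Slc7a9 was below the floor on both, at 0.6 and 4.4.

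Slc6a20a, a sodium-coupled carrier of proline and related imino acids, gave 135.2 in the NKR-P1B+ sample and 36.9 in the Ly49s3+ sample. The ratio was 3.66, the largest of any carrier above the floor on both arrays. Its second probe set did not share the difference, at 45.7 and 51.6, a log2 difference of −0.18 against 1.87. Which of the probe sets follows the Slc6a20a transcript cannot be told from these values.

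Slc15a3, a carrier of histidine and small peptides in the lysosome, was above the floor only in the NKR-P1B+ sample, at 48.9 against 13.7, at least 2.4-fold higher. The related Slc15a4 was at 60.6 and 50.1. Slc15a3 is known from macrophages, and of 4 such carrier genes on the array it alone was measured. The others were the iron exporter Slc40a1 (12.0 and 14.3), the cationic amino acid carrier Slc7a2 (10.8 and 2.1) and the sodium and calcium exchanger Slc8a1 (1.6 and 2.0). Macrophage markers summed to 401.3 and 184.7, with 7 of 8 below the floor, and their part in the Slc15a3 difference was not tested.

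Across the amino acid group the median difference was −0.06 (0.34 with spike scaling). At least 1.5-fold higher were 2 genes in the NKR-P1B+ sample and 1 in the Ly49s3+ sample, together 12.5%, beside 10.8% of all measured genes. Slc43a2, a carrier of large neutral amino acids, was represented by a probe set at 52.6 and 40.2, but a second gave 17.3 and 35.3, the other direction. Slc6a7, known as a brain proline carrier, was at 31.5 and 29.1, and Slc38a10 at 221.9 and 262.4. Many carriers of this group are known from brain, gut or kidney, and only 1 of 6 genes of family 1, which carries glutamate and neutral amino acids, was measured. In family 6, which takes up neurotransmitters and amino acids, 5 of 16 were measured and in family 7 5 of 15. Slc7a6os is named for its place on the strand opposite Slc7a6 and is no carrier, and the array gave 269.2 and 254.9 for it.

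**Figure D3:**
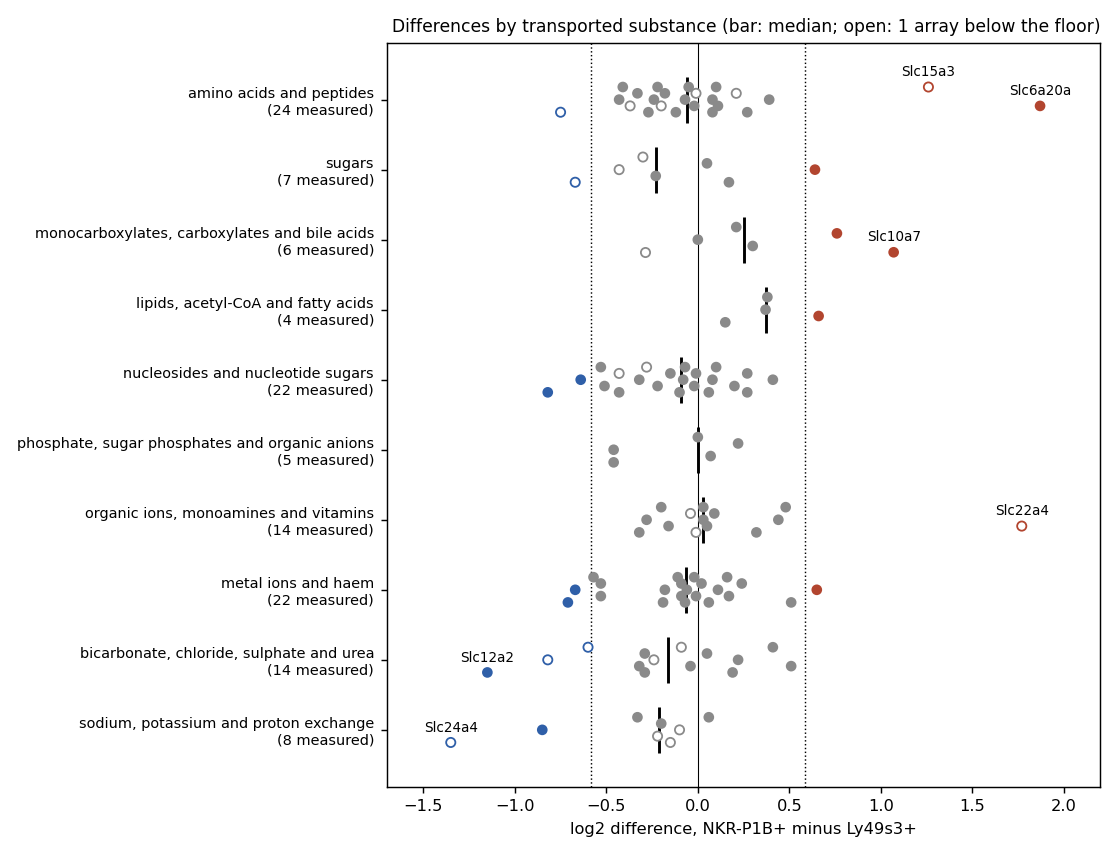
Log2 difference, NKR-P1B+ minus Ly49s3+, of each measured solute carrier gene by group of transported substance, with the group median as a bar and dotted lines at 1.5-fold. Medians ran from −0.23 for sugars to 0.37 for lipids, acetyl-CoA and fatty acids, and all were above 0 with spike scaling; open points are genes below the floor on 1 array.

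Carriers of bicarbonate, chloride, sulphate and urea had 14 of 26 genes measured. None was at least 1.5-fold higher in the NKR-P1B+ sample and 3 were in the Ly49s3+ sample (21.4%, beside 10.8% of all measured genes in either direction). Of these 3, Slc4a4 and Slc12a3 were above the floor on the Ly49s3+ array only, so they could be higher only there. Among the 10 genes of the group above the floor on both arrays, Slc12a2 alone was 1.5-fold apart, beside 9.73% of all such genes. Slc12a2 brings sodium, potassium and chloride into the cell together and is known for volume recovery after shrinkage. Its signal was 52.7 in the NKR-P1B+ sample and 117.1 in the Ly49s3+ sample, 2.22-fold higher on the latter. Slc12a7, which moves potassium and chloride out, lay the other way at 517.5 and 364.2, or 1.42-fold. Slc12a3, the thiazide-sensitive sodium and chloride carrier of the kidney, was at 13.9 and 36.1, at least 1.77-fold higher in the Ly49s3+ sample. The other measured potassium and chloride carriers, Slc12a5 (56.3 and 68.9) and Slc12a4 (19.9 and 24.1), and the related Slc12a9 (27.1 and 33.8) were within 1.5-fold. The T cell marker sum was also higher in the Ly49s3+ sample, at 219.1 and 490.4, but at 132.9 and 144.1 without Trat1, and Cd5 ran the other way at 92.7 and 40.8. With 3 of 7 markers below the floor on both arrays, the part of T cells in these differences was not tested.

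Slc4a7, which brings sodium and bicarbonate into the cell, had nearly equal signals of 1810.0 and 1865.6. Slc4a11, a relative known for moving protons, was at 356.0 and 436.4. The sodium bicarbonate carrier Slc4a4 was below the floor in the NKR-P1B+ sample, at 6.6, and at 31 on the other, at least 1.52-fold higher, and its second probe set was below the floor on both. Slc4a1, the anion exchanger of red cells, was at 9.9 and 21.7 and the red cell urea carrier Slc14a1 at 98.5 and 95.4. Slc26a6 and Slc26a8, anion exchangers, were at 59.4 and 44.6, and at 59 and 51.7. Slc4a1ap, at 174.6 and 150.1, is named for binding Slc4a1 and is no carrier.

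Exchangers of sodium, potassium, calcium and protons had 8 of 15 genes measured. Of these, 4 were above the floor on the Ly49s3+ array only, so they could only be lower in the NKR-P1B+ sample. With those 4 included, 7 of the 8 were lower in the NKR-P1B+ sample, as were 52.2% of all measured genes. With spike scaling it was 2 of the 5 then measured. Slc24a4, which exchanges calcium and potassium for sodium, was at 15.3 and 52, at least 2.55-fold higher in the Ly49s3+ sample. Its 2 other probe sets were below the floor on both arrays. The proton exchanger Slc9a2 was at 20.9 and 37.7, 1.8-fold higher in the Ly49s3+ sample and close to the floor on the other. The endosomal and Golgi proton exchangers Slc9a9 (171.0 and 196.5) and Slc9a8 (53.2 and 51.2) and the mitochondrial sodium and calcium exchanger Slc8b1 (61.5 and 77.5) were within 1.5-fold. The median of the group was −0.21, and 0.15 with spike scaling.

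Metal and haem carriers were among the most often measured, with 22 of 30 genes above the floor, all 22 on both arrays. Slc39a8 takes zinc, manganese and related metals into the cytosol. It had 786.4 in the NKR-P1B+ sample and 501.0 in the Ly49s3+ sample, a ratio of 1.57, and was the only carrier with a geometric mean signal above 100 among the 19. Its log2 difference of 0.65 lies beyond 2 SDs of the probe set spread above 500, which is 0.17. Slc39a14, its closest relative, was lower in the NKR-P1B+ sample, at 57.4 and 94.1, although its second probe set was below the floor on both.

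The remaining zinc importers of family 39 gave Slc39a10 at 265.3 and 303.4, Slc39a7 at 214.8 and 206.5, Slc39a6 at 212.4 and 196.7, and Slc39a1 at 188.3 and 197.6. None of these was 1.5-fold apart, while Slc39a11 (36.1 and 53.5) came close at 1.48-fold. Family 30, mostly zinc exporters and vesicle loaders, had 6 of 9 genes measured, from Slc30a9 at 379.0 and 409.2 to Slc30a3 at 41 and 59.4. None of them was 1.5-fold apart. The copper importer Slc31a1 had 78.1 and 76.8, the iron importer Slc11a2 123.3 and 104.5, and the magnesium carrier Slc41a1 128.8 and 90.3. Slc48a1, which moves haem out of lysosomes, was at 26.6 and 42.3, 1.59-fold higher in the Ly49s3+ sample. Red cell markers beside it went both ways, with Hbb at 276.3 and 152.8 and Hemgn at 50.6 and 131.1, and their part in the haem carrier difference was not tested.

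Nucleosides and nucleotide sugars had 22 of 28 genes measured, 18 of them from the 22 genes of family 35, whose members load the Golgi and endoplasmic reticulum. Slc35a1, the carrier of CMP-sialic acid, was equal at 404.6 and 406.1. Slc35b3 and Slc35b2, both carriers of the sulphate donor PAPS, were at 455.6 and 397.2, and at 146.5 and 110.5. Slc35c1, which carries GDP-fucose, had 76.3 and 80.2, Slc35a3, for UDP-N-acetylglucosamine, 40.4 and 41.1, and Slc35a2, for UDP-galactose, 27.7 and 39.9. None of these Golgi carriers was 1.5-fold apart.

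The 2 genes of the group that were 1.5-fold apart (9.09%, beside 10.8% of all measured genes) were both higher in the Ly49s3+ sample. Slc35b4, a carrier of UDP-xylose and UDP-N-acetylglucosamine, was at 69.4 and 122.8, or 1.77-fold, but its second probe set ran the other way at 68.9 and 55.0. Slc35f2 was at 79.4 and 123.5, 1.56-fold. The equilibrative nucleoside carriers were all slightly lower in the NKR-P1B+ sample, as were 52.2% of all measured genes, although 2 of 3 were higher with spike scaling. Slc29a1 was at 53.2 and 59.2, 0.5 SDs of the probe set spread from 0. Slc29a2, at 14.9 and 27.5, and the lysosomal Slc29a3, at 19.9 and 24.8, were above the floor on the Ly49s3+ array only. On the reported scale Slc29a2 and Slc29a3 could therefore only be lower in the NKR-P1B+ sample. The concentrative nucleoside carrier Slc28a2 was at 50.5 and 54.1.

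Carriers of organic ions, monoamines and vitamins had 14 of 34 genes measured. Slc22a4 takes up ergothioneine, a sulphur-containing antioxidant from the diet. It was above the floor only in the NKR-P1B+ sample, at 69.4 against 11.3, at least 3.4-fold higher. It had the largest bound among the carriers. The related carnitine carrier Slc22a5 was at 81.6 and 93.7, Slc22a18 at 53 and 64.2 and Slc22a17 at 108.0 and 106.0, so no other measured member of the family was 1.5-fold apart. Family 22 includes many drug and anion carriers of kidney and liver, and 4 of its 16 genes were measured.

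Vitamin carriers had similar signals on the arrays. The thiamine carrier Slc19a2 was 1.02-fold apart, the folate carrier Slc19a1 was at 56.2 and 62.9, and the riboflavin carrier Slc52a2 at 65.6 and 52.6. Slc23a2, which takes up vitamin C, was at 122.1 and 87.3, 1.4-fold higher in the NKR-P1B+ sample. The choline carrier-like gene Slc44a2 had 744.6 and 697.7. Its relative Slc44a1, which carries choline, had 64.9 and 62.8 on the brighter of its probe sets, while another gave 88.1 and 32.5, a log2 difference of 1.44 against 0.05.

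Carriers of monocarboxylates and bile acids had 6 of 18 genes measured, with 2 at least 1.5-fold higher in the NKR-P1B+ sample. These are 33.3% of a small group, beside 10.8% of all measured genes in either direction. Slc10a1, known as the bile acid importer of hepatocytes, was at 101.8 and 60.3, 1.69-fold. Slc10a7, a distant relative, was at 58.4 and 27.8, 2.1-fold, and Slc10a3 at 60.1 and 48.7. All 3 measured genes of family 10 were thus higher in the NKR-P1B+ sample, as were 47.6% of all measured genes. Slc10a3 lay 0.9 SDs of the probe set spread from 0. Slc16a6, a monocarboxylate carrier family member, was equal at 669.6 and 670.5, and Slc16a10, which carries aromatic amino acids, was at 46.8 and 40.4.

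Lipid carriers were few, with 4 of 6 genes measured, and all 4 had the higher signal in the NKR-P1B+ sample, as did 47.6% of all measured genes, with a median difference of 0.37. Only Slc27a2 was 1.5-fold apart, and Slc27a4 lay 0.5 SDs of the probe set spread from 0. Slc27a2, which takes up and activates fatty acids, was at 43.5 and 27.6, 1.58-fold. Its relatives Slc27a1 (193.1 and 149.5) and Slc27a4 (83.9 and 75.4) and the endoplasmic reticulum acetyl-CoA carrier Slc33a1 (118.0 and 90.8) were within 1.5-fold.

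Sugar carriers had 7 of 19 genes measured. Slc2a8, an intracellular glucose carrier, was at 46.6 and 29.9, 1.56-fold higher in the NKR-P1B+ sample, and Slc45a3 at 15.3 and 32.4, at least 1.59-fold higher in the Ly49s3+ sample. The inositol carrier Slc5a3 had 378.3 and 335.8 and the sugar carrier Slc50a1 402.8 and 387.8. Slc5a6, which shares its family with glucose carriers but takes up biotin and pantothenate, had 150.4 and 176.1. Groups hold whole families, and the median of this group, −0.23, is the difference of Slc5a6. The fructose carrier Slc2a5 was at 16.4 and 25.1.

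Phosphate and organic anion carriers had 5 of 14 genes measured and none 1.5-fold apart. The phosphate importer Slc20a1 had equal signals of 1591.4 and 1592.3, and its relative Slc20a2 had 29.8 and 28.3. Slc37a4, which takes glucose 6-phosphate into the endoplasmic reticulum, was at 174.9 and 149.7, Slc37a1 at 73.0 and 100.5, and the lysosomal sialic acid exporter Slc17a5 at 57 and 78.5. The kidney and gut phosphate carriers of family 34 were below the floor.

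The floor decided which carriers were described. Just above it on the brighter array were Slc23a4 (20.5), the dopamine carrier Slc6a3 (20.6) and the vesicular monoamine carrier Slc18a2 (21.0). Just below it were Slc14a2 (20.2), Slc44a4 (20.2) and the glutamate carrier Slc1a3 (20.1). A signal below the floor does not show that a gene is not transcribed. Among families with at least 6 genes on the array, the measured share ran from 18 of 22 genes in family 35, 9 of 12 in family 39 and 6 of 8 in family 12 to 1 of 6 in family 1 and 1 of 7 in family 17. Of the 50 families, 11 had every gene measured, none with more than 3 genes, and 6 had no measured gene.

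**Figure D4:**
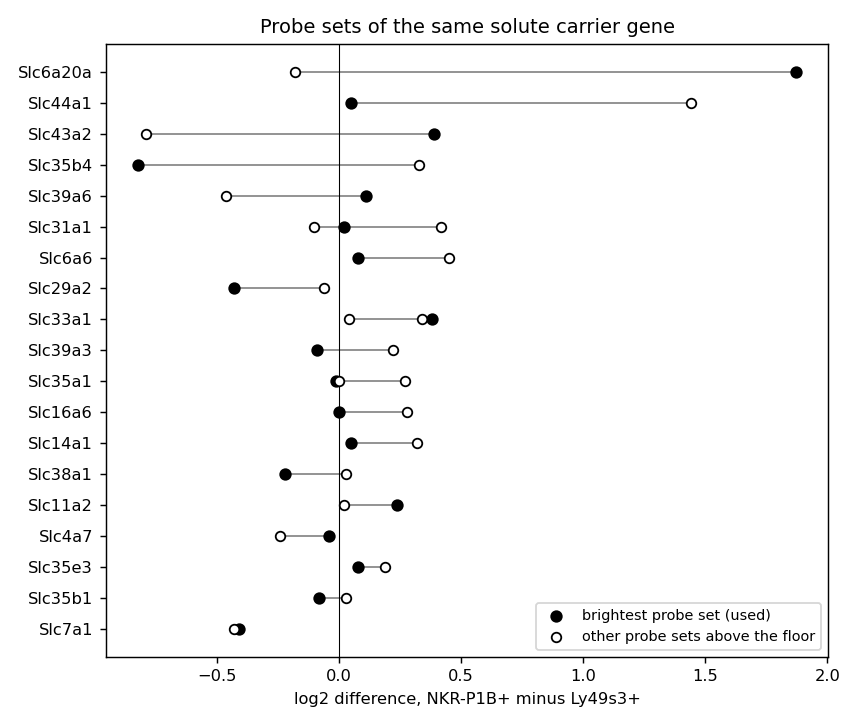
Log2 difference, NKR-P1B+ minus Ly49s3+, of each probe set above the floor for the measured solute carrier genes that have several such probe sets. The points of 15 of the 19 genes lie within 1.5-fold of each other, and those of Slc6a20a, Slc44a1, Slc43a2 and Slc35b4 lie more than 1 log2 apart.

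Probe sets of the same gene gave a check within the arrays. Of 19 measured carriers with several probe sets above the floor, 15 had differences within 1.5-fold of each other. The other 4 were Slc6a20a, Slc44a1, Slc43a2 and Slc35b4, each more than 1 apart on the log2 scale. Of the 19 carriers at least 1.5-fold apart, 14 had a single probe set, and only Slc6a20a and Slc35b4 had a second one above the floor, which in both cases lay on the other side of 0.

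Genes that assist or regulate carriers were read from a list of partners, of which 49 were on the array and 44 measured. Their median difference was 0.06, beside −0.02 for all measured genes, with 3 at least 1.5-fold apart in each direction. Together these were 13.6% of the measured partners, near the 10.8% of all measured genes. Emb, a chaperone of monocarboxylate carriers, was at 2717.4 and 994.1, 2.73-fold higher in the NKR-P1B+ sample, while the chaperone Bsg had 377.0 and 343.2. The stress factor Ddit3 (609.8 and 406.2, 1.5-fold) and the lysosomal gene regulator Tfe3 (98.9 and 65, 1.52-fold) were also higher there. Atf4, which activates amino acid response genes, was 1.42-fold higher in the NKR-P1B+ sample, at 2717.7 and 1915.2. Asns, asparagine synthetase and a target of Atf4, lay the other way at 37.2 and 85.1, 2.29-fold higher in the Ly49s3+ sample.

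Beside Slc12a2 and its relatives, the kinase gene Stk39, whose product activates sodium-dependent chloride carriers, was 1.73-fold higher in the Ly49s3+ sample, at 134.8 and 233.6. The kindred kinase Oxsr1 (264.2 and 265.5) and the upstream kinase Wnk1 (1232.3 and 1185.8) were equal within 1.5-fold. Nedd4l, a ubiquitin ligase that removes ion channels and carriers from the surface, was at 47.7 and 80.4, 1.69-fold higher in the Ly49s3+ sample. Beside the zinc carriers, the zinc-sensing factor Mtf1 had 215.5 and 173.9 and the metallothionein Mt2A had 52.1 and 72.7.

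The 19 carriers were followed through 8 other ways of treating the values. Slc6a20a ranged from 0.85 with the mean of its probe sets to 2.36 with spike scaling, Slc12a2 from −1.15 to −0.66 and Slc39a8 from 0.62 to 1.14, and these 3 stayed at least 1.5-fold apart throughout. Slc22a4 ranged from 0.39 with the floor at the 65th percentile to 2.62 with the floor at the 35th. None of the 19 changed direction in a setting in which it was measured.

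**Figure D5:**
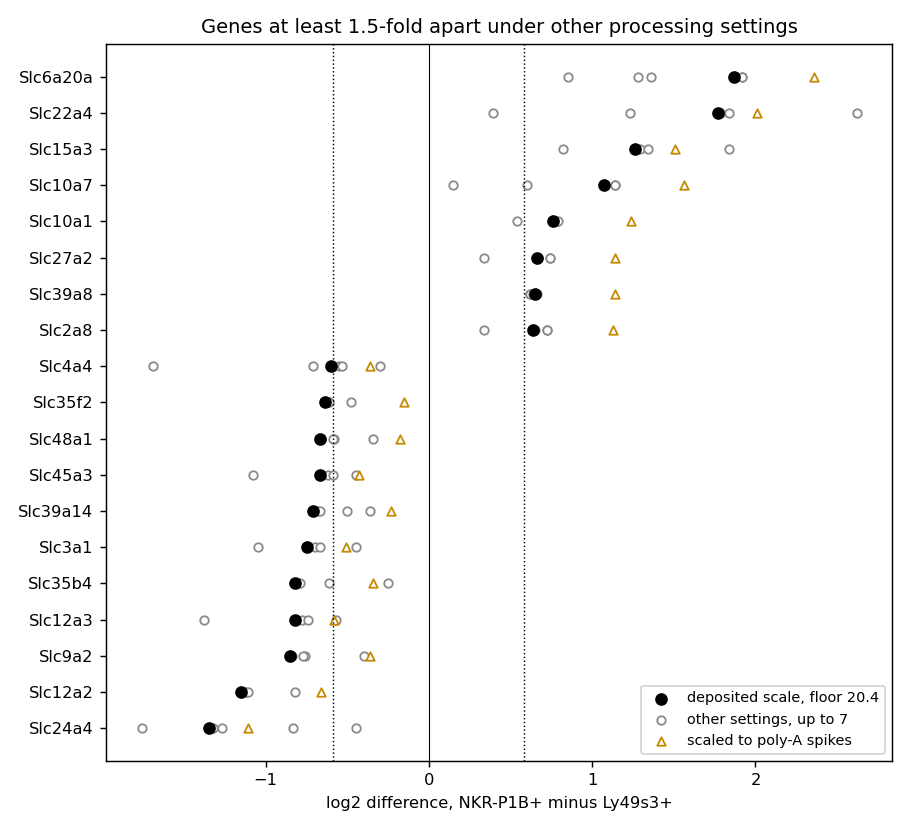
Log2 difference of the 19 solute carrier genes at least 1.5-fold apart, in the setting reported and in up to 8 other settings, with dotted lines at 1.5-fold. No gene crosses 0, which most of the settings could not bring about, and Slc6a20a, Slc12a2 and Slc39a8 stay beyond 1.5-fold in all 8.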

How the data were processed

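Total RNA of each sorted population (3 ug) was labelled with biotin and hybridised to an Affymetrix rat array, per the labels. Each deposited value is the linear intensity of a probe set, made with MAS5 per the submitters' processing notes. The sources used here give no version, target value or present calls. Both arrays had a trimmed mean (2% left out per end) of 100.04. The table is thus linear, uncentred and scaled to a common value, while the factor applied to each array is unknown. Actin controls had a 3' to 5' ratio of 11.9 in the NKR-P1B+ sample and 13.2 in the Ly49s3+ sample, and Gapdh controls 2.84 and 2.77. No per-sample column was left unused.

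Of 31099 probe sets, 57 were controls and 20826 of the others had 1 gene symbol in the platform annotation. All 251 carriers matched a RefSeq gene number, with 0 symbols changed. That assembly, GRCr8, gave names and upstream sequences only. Carriers were grouped by family number into 10 groups of transported substance. Each gene was represented by its brightest probe set, judged by mean log2 signal. Values were floored at the 50th percentile and compared as log2 differences, and with 1 array per population no p-value was computed. For the probe set spread, differences between paired probe sets were taken, and their root mean square, given as the SD, was divided by the square root of 2. Members, gene lists and settings were chosen with earlier results of these data known, so their counts are no independent evidence.

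Named were the carriers at least 1.5-fold apart, the 20 brightest, the 3 brightest of each group, the brightest of each family with at least 3 measured genes, those with probe sets more than 1 log2 apart, the 3 on each side of the floor, and members of the CD98 and rBAT pairs, in all 67. Other members were added as examples after their values were seen. Alternatives were floors at the 35th and 65th percentile, log2 of the value plus 32, median centring, quantile normalization, loess with a span of 0.3, the mean of probe sets, and scaling to poly-A spikes. Scripts used Python 3.11.15, numpy 2.4.6, pandas 2.3.3, statsmodels 0.14.6 and matplotlib 3.10.9. The gene values and fold counts were tested on simulated data in which only genes with a mean signal above 200 were changed. That test does not cover the low signals where most of the reported differences lie.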

Additional observations from a re-analysis of the deposited data

How the results depend on the processing

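None of the 19 carriers at least 1.5-fold apart changed direction under the 8 other settings, where each could be computed. Most of these settings could not reverse a difference of that size, so the unchanged directions are no sign of stability. Carriers at least 1.5-fold higher in the Ly49s3+ sample, 11 as reported, numbered 23 with the floor at the 35th percentile, 4 at the 65th, 4 with 32 added, 7 with the mean of probe sets and 2 with scaling to poly-A spikes. Those in the NKR-P1B+ sample, 8 as reported, numbered 16, 4, 5 and, with spikes, 36. At 2-fold the 2 in the Ly49s3+ sample became 9, 1, 0, 1 and 1 in the same order of settings, and the 4 in the NKR-P1B+ sample became 1 at the 65th percentile, 2 with 32 added and 9 with spikes. The median of −0.05 was 0.41 with spikes, and each negative group median was then above 0. At the 65th percentile the medians of sugars and of bicarbonate, chloride, sulphate and urea carriers, −0.23 and −0.16, were both 0.05.

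Single genes moved as well. With the mean of probe sets Slc6a20a was at 0.85, Slc35b4 at −0.25, Slc39a14 at −0.36 and Slc24a4 at −0.45, and with the higher floor Slc22a4 was at 0.39 and Slc10a7 at 0.15, while 10 of the 19, Slc15a3 and Slc24a4 among them, were no longer measured. Of 540 gene and group values, 456 moved by less than the probe set spread and 84 by more, 59 of these with spikes. No replicate could be left out and no paired analysis was possible because each population has 1 array. Most of the differences lie near the floor, where the precision is lowest.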
